A study of Arabidopsis thaliana with 16 samples.

Results

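The genes described here are 7 Arabidopsis genes whose transcripts were lower after dexamethasone (DEX) in far-red light: AT3G48970, AT3G54000, ATL8, AT2G28200, AT3G61550, AT5G63620 and AT1G70990. They are 7 of 13356 genes that have a probe set assigned to a single gene, and each is measured by 1 such probe set. They were listed because they were lower with DEX in far-red, so that difference is given as a description and without a test. Other measures were tested, namely the response to DEX in darkness, on other arrays, and the mean difference between the lights. In this balanced design the error of the latter is uncorrelated with that of the DEX difference in far-red. The mean still includes the far-red DEX level that chose the genes. The estimate of spread in both tests includes the far-red arrays that chose the genes. Only the test in darkness was also fitted without them.

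All seedlings carried the fhy3-4 mutation and the transgene FHY3p:FHY3-GR, which makes a fusion of FHY3 with the glucocorticoid receptor (GR) from FHY3's own promoter. Without DEX this protein is held in the cytoplasm, and DEX lets it move into the nucleus. Whole seedlings were grown for 4 days in darkness or in continuous far-red light and then received 10 µM DEX, or the same volume of ethanol as mock, for 2 h. Each of the 4 groups (dark mock, dark DEX, far-red mock and far-red DEX) has 4 arrays from independent biological replicates, 16 Affymetrix ATH1 arrays in all. The groups used here hold no line without the fusion, so an effect of DEX itself and an effect of the fusion protein's entry into the nucleus cannot be told apart.

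FHY3 is a transcription factor related to transposases that acts in phytochrome A signalling, the pathway by which seedlings perceive continuous far-red light. It is best known as an activator, with FHY1 and FHL among its direct targets, whose products carry phytochrome A into the nucleus. Seedlings in darkness elongate their stems and keep their cotyledons closed, whereas far-red light sensed by phytochrome A starts their opening without chlorophyll being made.

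By background knowledge of Arabidopsis protein families, the genes fall into 3 kinds, and the reference used here holds a symbol only for ATL8. Those of regulation are ATL8 and AT3G61550, which encode RING finger proteins of the ATL kind, a family of membrane-bound ubiquitin ligases that mark other proteins for breakdown, and AT2G28200, which encodes a C2H2 zinc finger protein. Those of metabolism and metal handling are AT5G63620, an alcohol dehydrogenase of the zinc-binding kind, which converts alcohols and aldehydes into each other, and AT3G48970, with a heavy metal-associated domain, a fold that holds metal ions. AT1G70990 encodes a proline-rich protein, and proteins of that kind are often part of the cell wall. No role is given here for AT3G54000, though a list of TOR and PP2A signalling used below includes it.

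Signals are log2 values of a probe set, so a change of 1 is a doubling, and ± is the SD of 4 arrays for a level and the standard error for a change. Levels are compared between groups for 1 gene and not between genes, whose probes differ. Arrays of 1 group correlated at 0.9956 to 0.9981 and no 2 held identical values. In far-red the summed signal of the 3 green tissue markers measured of 7 listed (PSAN, RCA and SBPASE) was 14.0 to 14.13 on the log2 scale under either treatment, and in dark 12.42 to 12.68, and the only root marker measured of 5, EXPA7, lay between 4.69 and 5.52 on all arrays. Lowest signals of the 7 genes were 6.62 and above, against a lower quartile of all probe sets of 4.38 to 4.497 on the arrays. RNA came from whole seedlings, so fewer cells of a type and less RNA per cell cannot be told apart.

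In far-red light, the change that chose the genes was of moderate size throughout. It ran from -0.39 for AT1G70990 to -0.50 for AT3G48970 on the log2 scale, 1.31-fold to 1.42-fold lower with DEX. For all 7 the 4 DEX arrays lay below the 4 mock arrays, which held for 3.27% of all probe sets, and lower calls made up 0.119% of all probe sets. Since these arrays chose the genes, nothing is read from either count.

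The gene for the heavy metal-associated domain protein, AT3G48970, had far-red mock signals of 10.74, 10.68, 10.51 and 10.30 and far-red DEX signals of 10.05, 10.10, 10.03 and 10.04. The mock arrays were spread widely and the DEX arrays hardly at all (SD 0.20 and 0.03), without overlap. AT3G54000 gave 7.30, 7.38, 7.60 and 7.64 under mock and 6.81, 6.97, 7.14 and 7.01 under DEX, a change of -0.50 ± 0.09. Here both groups were spread, and the highest DEX array still lay below the lowest mock array.

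For ATL8, the far-red mock signals were 8.61, 8.50, 8.41 and 8.60 and the DEX signals 8.22, 7.98, 7.998 and 8.23 (change -0.42 ± 0.08). AT3G61550, the other RING finger gene, had 7.40, 7.27, 7.38 and 7.38 under mock and 6.81, 7.04, 6.99 and 7.01 under DEX (-0.40 ± 0.07). Mock replicate 2 was the lowest mock array and DEX replicate 1 the lowest DEX array for AT3G61550. The zinc finger gene AT2G28200 had 9.13, 9.06, 9.05 and 9.20 under mock and 8.61, 8.73, 8.73 and 8.78 under DEX (-0.40 ± 0.07). The distance between the groups exceeded the spread within each of them for this gene.

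AT5G63620, the alcohol dehydrogenase gene, had the tightest pair of groups: 11.27, 11.35, 11.26 and 11.28 under mock and 10.88, 10.85, 10.91 and 10.95 under DEX (SD 0.04 in each). Its change was -0.39 ± 0.07. AT1G70990, the proline-rich protein gene, had 9.65, 9.44, 9.47 and 9.69 under mock and 9.05, 9.24, 9.14 and 9.27 under DEX (-0.39 ± 0.07). Its mock arrays split into a higher and a lower pair, and the lowest of them stood above every DEX array.

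**Figure D1:**
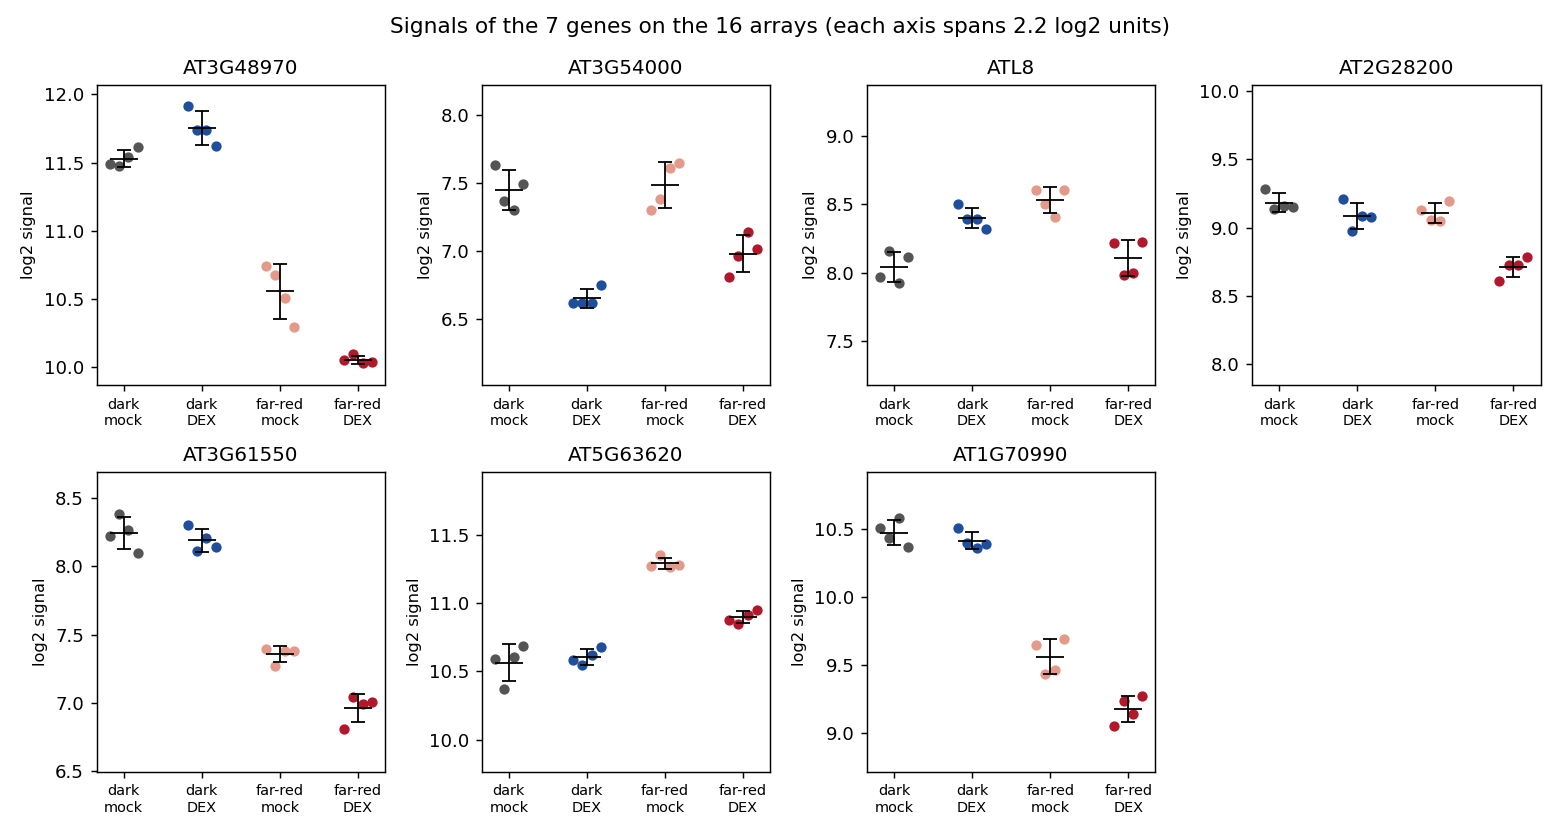
Log2 signal of each gene on the 16 arrays, 4 in each group of light and treatment. Points are arrays, and bars are the mean and SD of 4. In far-red the DEX arrays lie below the mock arrays in all 7 panels, while in dark they lie lower for AT3G54000 and higher for ATL8 and AT3G48970.

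The list ends without a gap in size. Just inside it, AT5G63620 and AT1G70990 changed by -0.393 and -0.386, and the next genes called lower in far-red were AT5G64870 at -0.358, AT4G16670 at -0.354 and AT3G06770 at -0.340. AT5G64870 went from 7.55 ± 0.16 to 7.19 ± 0.12, with overlapping arrays. AT4G16670 went from 8.86 ± 0.16 to 8.51 ± 0.10 and AT3G06770 from 8.97 ± 0.10 to 8.63 ± 0.04, both without overlap. Within the span of the list, 2 further genes called lower are not on it, AT1G27670 at -0.433 and B120 at -0.401. They are named here because of their values. In all, 16 genes were called lower in far-red by their brightest single-gene probe set.

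The response to DEX in darkness was tested next. Of the 7, AT3G54000 fell with DEX in dark, ATL8 rose, and the other 5 did not pass the test (limma, adjusted p over 22746 probe sets under 0.05). Lower calls made up 3.56% of all probe sets and higher calls 2.34%. These shares are larger among probe sets above the median signal, where all 7 genes lie. Fitted on those alone, 766 were called lower and 553 higher, against 809 and 533 of all. The median change of the 7 genes was -0.05, against 0.01 for all probe sets. The genes were listed for their change in far-red and not in dark, but with earlier results of these data known.

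AT3G54000 had dark mock signals of 7.63, 7.36, 7.30 and 7.49 and dark DEX signals of 6.62, 6.62, 6.62 and 6.75. It fell by 0.79 ± 0.09 on the log2 scale, 1.73-fold (limma adjusted p = 4.06e-06). The 4 DEX arrays lay far below the mock arrays, and 3 of them were nearly equal. Apart from this gene none of the 7 was called lower in both lights. Its change in dark was larger than that in far-red by 0.30 ± 0.13, a description, since the far-red values chose the gene.

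ATL8 went the other way in dark. Its mock signals were 7.97, 8.16, 7.93 and 8.11 and its DEX signals 8.50, 8.39, 8.39 and 8.32, a rise of 0.36 ± 0.08 or 1.28-fold (limma adjusted p = 0.00569). All DEX arrays lay above all mock arrays, the reverse of far-red. The response in far-red minus that in dark was -0.78 ± 0.11, given without a test.

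AT3G48970 had 11.49, 11.48, 11.54 and 11.61 under mock and 11.92, 11.74, 11.74 and 11.62 under DEX in dark. The DEX arrays again lay above the mock arrays, but the closest pair almost touched. The difference of 0.23 ± 0.08 did not pass the test (limma adjusted p = 0.151), with a 95% interval of the change from 0.05 to 0.40 before adjustment. Its response in far-red minus that in dark was -0.73 ± 0.12, likewise untested. Arrays apart and lower in dark were found for 1 of the 7 genes and arrays apart and higher for 2, against 5.6% and 5.01% of all probe sets.

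The remaining 4 genes did not pass the test in dark. AT2G28200 had 9.29, 9.14, 9.16 and 9.15 under mock and 9.21, 8.98, 9.08 and 9.08 under DEX, with a change of -0.10 ± 0.07 and an interval from -0.24 to 0.04. For AT3G61550 the mock signals were 8.23, 8.38, 8.26 and 8.10 and the DEX signals 8.30, 8.11, 8.21 and 8.15, with a change of -0.05 ± 0.07 and an interval from -0.20 to 0.10. In both genes the arrays of the treatments overlapped.

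AT5G63620 had 10.59, 10.37, 10.61 and 10.69 under mock and 10.58, 10.54, 10.62 and 10.68 under DEX in dark, with a change of 0.04 ± 0.07 (interval -0.10 to 0.18). AT1G70990 had 10.50, 10.43, 10.58 and 10.37 under mock and 10.51, 10.40, 10.36 and 10.39 under DEX, with a change of -0.06 ± 0.07 (interval -0.21 to 0.10). The treatments overlapped for both. The adjusted p of these 4 genes ran from 0.541 to 0.837 (limma), which does not show that DEX left them as they were.

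In the same dark arrays other measures moved with DEX. The summed signal of the 2 seed markers measured of 5, PAP85 and AT2G28490, was 7.98 to 8.54 under mock and 6.17 to 6.84 under DEX, and in far-red it was 8.56 to 9.27 and 8.44 to 8.95. The 3′ minus 5′ signal of ubiquitin, a sign of RNA integrity, was 1.26 to 1.28 in dark mock and 1.15 to 1.25 in dark DEX, and in far-red 1.13 to 1.24 under mock and 1.19 to 1.35 under DEX. Their part in the results for the 7 genes was not tested. The green tissue sum overlapped between the treatments within each light.

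**Figure D2:**
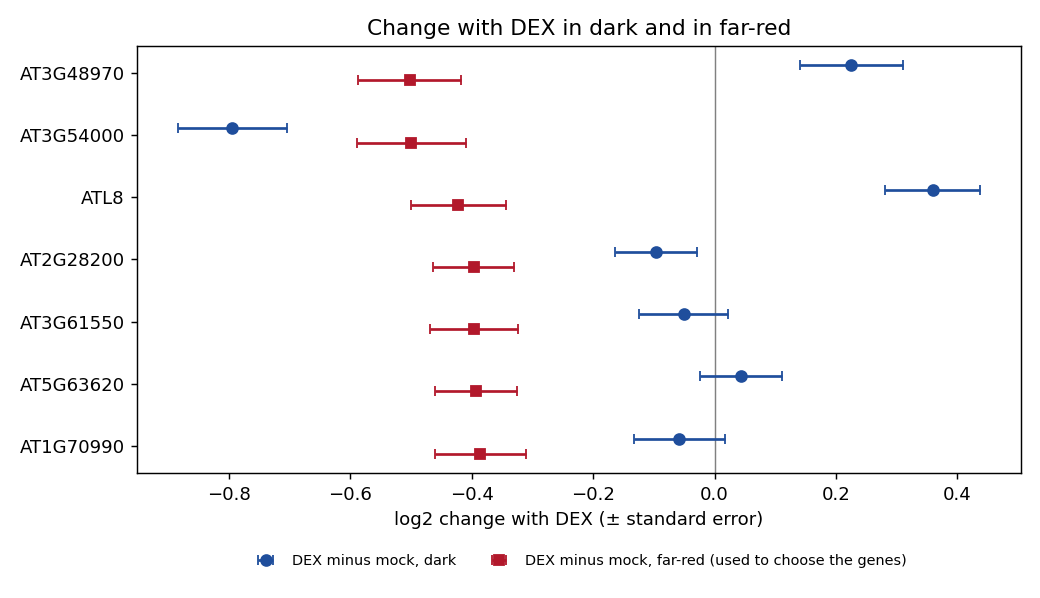
Log2 change with DEX for each gene, in dark (circles) and in far-red (squares), with standard errors. The far-red values, used to choose the genes, lie between -0.50 and -0.39, while those in dark run from -0.79 for AT3G54000 to 0.36 for ATL8.

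For AT3G48970, AT3G61550, AT1G70990 and AT5G63620 the mean difference between the lights was larger in size than either change with DEX. Averaged over both treatments, 4 of the 7 were lower in far-red than in dark, 2 were higher and ATL8 did not pass the test. Among all probe sets 26.6% were called lower and 21.8% higher, so calls are common in this comparison. They are commoner still among probe sets above the median signal, where all 7 genes lie. Fitted on those alone, 4379 were called lower and 3657 higher, against 6060 and 4970 of all. The median difference of the 7 genes was -0.23, against -0.01 for all probe sets.

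The largest differences belonged to AT3G48970, which was 2.53-fold lower in far-red (log2 difference -1.34 ± 0.06, limma adjusted p = 1.12e-13), AT1G70990, 2.10-fold lower (-1.07 ± 0.05, 4.82e-13), and AT3G61550, 2.08-fold lower (-1.06 ± 0.05, 4.37e-13). For these 3 all 8 far-red arrays lay below all 8 dark arrays, which held for 12.9% of all probe sets. AT2G28200 was 1.17-fold lower (-0.23 ± 0.05, limma adjusted p = 0.000402), with overlapping arrays. Its difference was -0.08 ± 0.07 under mock and -0.38 ± 0.07 under DEX. Much of its mean difference thus comes from the low far-red DEX level, which chose the gene.

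AT5G63620 was 1.42-fold higher in far-red (0.51 ± 0.05, limma adjusted p = 1.23e-08), with all far-red arrays above all dark ones, as for 10.4% of all probe sets. AT3G54000 was 1.13-fold higher (0.18 ± 0.06, limma adjusted p = 0.0224), a call that rests on single arrays: the adjusted p was 0.0551 without dark mock replicate 3, 0.0506 without far-red mock replicate 3, 0.0526 without far-red mock replicate 4 and 0.0562 without far-red DEX replicate 3. The difference of AT3G54000 was 0.03 ± 0.09 under mock and 0.33 ± 0.09 under DEX. ATL8 differed by 0.10 ± 0.06 (limma adjusted p = 0.165), a mean of opposite differences under mock and DEX.

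The levels in the 4 groups are given next as a description, in which the place of far-red DEX below far-red mock comes from the choice of the genes. AT3G48970 ran from 11.75 ± 0.12 in dark DEX through 11.53 ± 0.06 in dark mock, then 10.56 ± 0.20 in far-red mock, to 10.05 ± 0.03 in far-red DEX, with no overlap between neighbours. It was lower in far-red by 0.97 under mock and by 1.70 under DEX. AT3G61550 and AT1G70990 shared an order: dark mock and dark DEX overlapped at the top (8.24 ± 0.12 and 8.19 ± 0.08; 10.47 ± 0.09 and 10.41 ± 0.06), far-red mock came next (7.36 ± 0.06; 9.56 ± 0.13) and far-red DEX was lowest (6.96 ± 0.11; 9.18 ± 0.10).

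AT5G63620 was highest in far-red mock (11.29 ± 0.04), lower in far-red DEX (10.90 ± 0.04), and lowest in dark DEX and dark mock, which overlapped (10.61 ± 0.06 and 10.57 ± 0.13). It was above dark by 0.73 under mock and by 0.29 under DEX. ATL8 was highest in far-red mock and dark DEX, which overlapped (8.53 ± 0.10 and 8.40 ± 0.07), and lowest in far-red DEX and dark mock, which overlapped too (8.11 ± 0.13 and 8.04 ± 0.11). The far-red level of ATL8 was 0.49 above dark under mock and 0.29 below it under DEX (log2 difference -0.29).

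AT2G28200 was alike in 3 groups, with overlapping arrays in dark mock, far-red mock and dark DEX (9.18 ± 0.07, 9.11 ± 0.07 and 9.09 ± 0.09). Far-red DEX stood below them at 8.71 ± 0.07. AT3G54000 was high under mock in both lights, where the arrays overlapped (7.48 ± 0.17 in far-red and 7.45 ± 0.14 in dark). Under DEX it was lower, at 6.98 ± 0.13 in far-red and 6.65 ± 0.07 in dark, and these groups did not overlap.

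**Figure D3:**
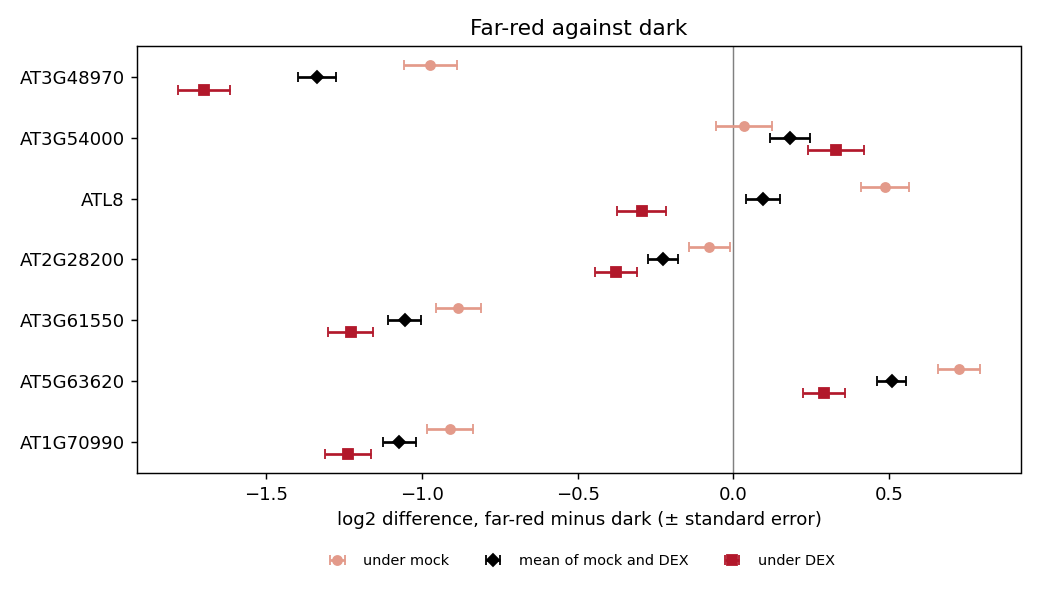
Log2 difference between far-red and dark for each gene under mock (circles), under DEX (squares) and as their mean (diamonds), with standard errors. AT3G48970, AT3G61550 and AT1G70990 lie below 0 throughout, AT5G63620 above 0, and ATL8 changes sign between mock (0.49) and DEX (-0.29).

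Genes with the most similar signals over the 16 arrays were looked up for each of the 7 among 13355 other genes. The values are descriptions, in which the difference between the lights weighs heavily where it is large. It was small for ATL8 and AT3G54000 (0.10 and 0.18). The far-red arrays that chose the genes are included, so likeness among the 7 can partly come from the choice. AT3G61550 and AT1G70990 were each other's nearest gene (Pearson r = 0.991 over 16 arrays), and TET3, a tetraspanin gene, was next for both (r = 0.986 and 0.987). AT3G48970 was most like AT2G37050 (0.985) and AT5G48900 (0.984).

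AT2G28200 was most like RALFL22, which encodes a small signalling peptide of the RALF family (0.911), and AT4G27270 (0.909). The genes nearest to AT5G63620 were AT2G15580 (0.940) and AT5G58800 (0.929). For AT3G54000 they were PTI1-4, a protein kinase gene (0.909), and APS3, an ATP sulfurylase gene of sulfate assimilation (0.869). APS3 had a change with DEX of -0.80 in dark and -0.37 in far-red. ATL8 had the least close neighbours, AT5G06490 (0.845) and AT5G27700 (0.786). Among the 7, ATL8 and AT3G48970 both opposed far-red and dark, yet their r was 0.04.

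Relatives of the 7 genes, AT3G54000 excepted, were followed through lists of 5 protein families written from background knowledge. Of 98 listed relatives 43 were measured, and none of them was called in far-red (limma), with log2 changes between -0.26 and 0.26. At an unadjusted p under 0.05, 3 were lower and 3 higher. All probe sets called in far-red came to 1.04%. In dark 6 of the 43 fell with DEX and 3 rose, against 3.56% and 2.34% of all probe sets.

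For the ATL family 22 of 40 listed relatives were measured, with a median change of 0.00 in dark and -0.02 in far-red. AT5G42200 fell by 2.29 ± 0.17 in dark (limma adjusted p = 1.98e-08), AT2G47560 fell by 0.45 ± 0.10 and AT2G35910 fell by 0.42 ± 0.08, while AT1G72200 rose by 0.65 ± 0.10 alongside ATL8. In far-red their log2 changes were -0.19, 0.08, -0.01 and 0.26, none of them called. Between the lights 9 of the 22 were lower in far-red and 7 higher, where 26.6% and 21.8% of all probe sets were.

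Among 5 measured of 16 other zinc finger genes of the C2H2 kind, STZ, which encodes a repressor induced by stress, fell in dark by 0.82 ± 0.12 (limma adjusted p = 0.000108) and stood at 0.02 in far-red. The median of the 5 was -0.11 in dark. Of 3 measured of 14 other genes with the heavy metal-associated domain, AT2G36950 fell by 1.02 ± 0.09 and AT5G03380 fell by 0.53 ± 0.08 in dark, where AT3G48970 did not pass the test. All 3 were higher in far-red than in dark, by 0.26 to 0.28, a call made for 21.8% of all probe sets. The median of the 3 in dark was -0.53.

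Of 7 measured of 9 other alcohol dehydrogenase genes, AT1G22440 rose in dark by 0.31 ± 0.09 (limma adjusted p = 0.0481), with a median of -0.03 over the 7. Between the lights 5 of the 7 were lower in far-red and 1, AT1G32780, was higher, where 26.6% and 21.8% of all probe sets were. Of 6 measured of 19 other extensin and proline-rich protein genes, AT5G06630 rose in dark by 0.50 ± 0.12 (limma adjusted p = 0.0129), and the median was 0.15. None of the 6 passed the test between the lights (limma, with 1 higher at an unadjusted p under 0.05). Their far-red changes with DEX were all below 0, from -0.21 to -0.04, with a median of -0.15 against -0.02 for all probe sets, and none was called (limma, 0 at an unadjusted p under 0.05). Probes of extensin genes can pick up transcripts of close copies, so single values in that family are uncertain.

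Genes linked to FHY3 and phytochrome A signalling were listed too, and 2 of 13 were measured. FHL, named above as a direct target of FHY3, fell in dark by 0.98 ± 0.13 (limma adjusted p = 2.49e-05). The cause of this direction was not tested. The change of FHL in far-red, -0.31 ± 0.13, was not called (limma adjusted p = 0.390). It was lower there at an unadjusted p under 0.05, and all its DEX arrays lay below all its mock arrays, as for 3.27% of all probe sets. HEMB1, an enzyme gene of tetrapyrrole synthesis, stood at -0.03 ± 0.06 in dark and 0.03 ± 0.06 in far-red. No probe set used here is paired with FHY3 alone, so the fusion's transcript was not used as a check. A list of TOR and PP2A signalling, written from background knowledge, holds AT3G54000 and 11 other genes. Of these 11, AT4G34270 and RAPTOR1 were measured. Neither was called (limma) for DEX in either light or between the lights, with 0 at an unadjusted p under 0.05.

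**Figure D4:**
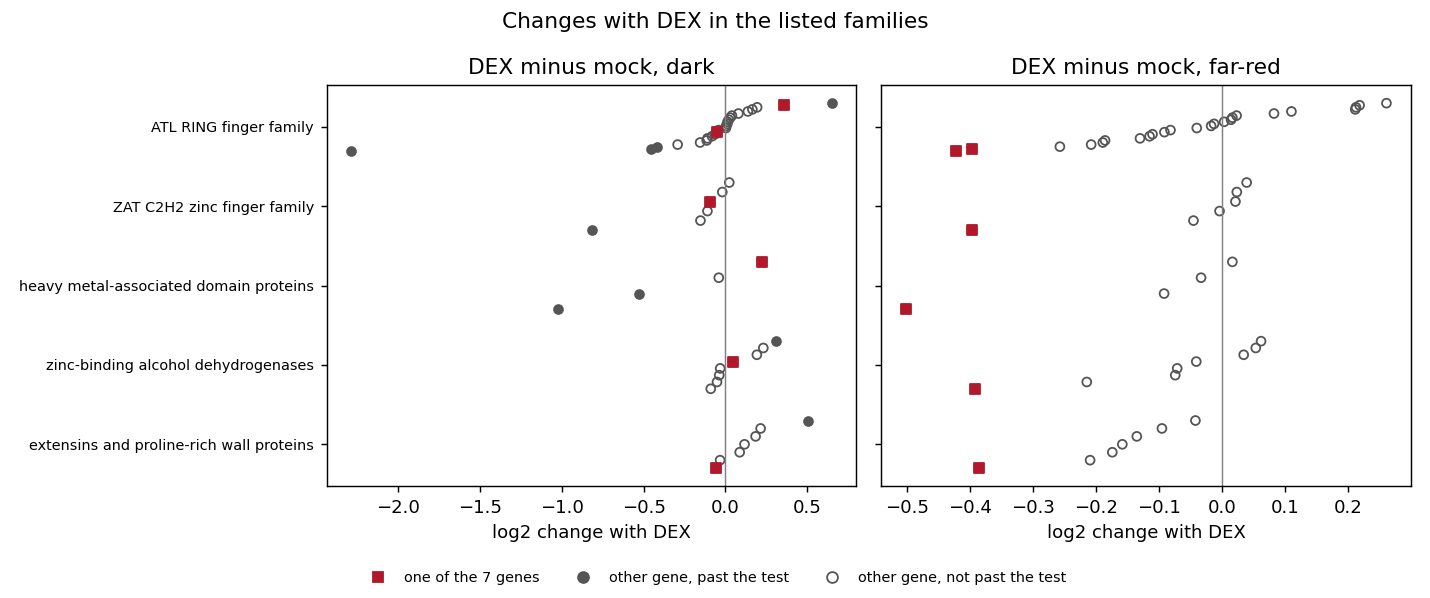
Log2 change with DEX in dark (left) and in far-red (right) for the measured genes of 5 families, on axes of different length. Squares are genes of the 7, filled circles other genes past the test and open circles other genes not past it. In far-red no circle is filled and all lie between -0.26 and 0.26. The squares there were chosen by this change.

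Genes next to the 7 were looked at as well. Of the 14 protein-coding genes directly beside them in the order of the TAIR10.1 reference, 6 were measured by a single-gene probe set. None was called with DEX in far-red (limma), and 2 were lower and 0 higher at an unadjusted p under 0.05. The log2 change was below 0 for 5 of the 6 and lay between -0.43 and 0.06. The median of all probe sets was -0.02, and their share below 0 was not counted, so nothing is read from these counts. In dark the changes of the 6 lay between -0.16 and 0.12, and none was called (limma). Lowest of them in far-red was AT1G70985, beside AT1G70990, at -0.43 (limma adjusted p = 0.1998).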

How the data were processed

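The authors deposited a log2 signal for each probe set on each array, already normalised. The submitters' processing notes name RMA and affy, with versions, settings and probe set definitions not given in the sources used here. Medians of the arrays lay between 6.60 and 6.68, so a shift shared by all transcripts cannot be seen. The values hold no background or detection call, and the 4 arrays of a group limit the precision. Groups and replicate numbers came from the sample titles, and all 16 columns were used. Of 22810 probe sets, 64 controls were left out and 22746 tested: 13513 are paired with 1 gene, 503 with several and 8730 are unnamed here. Symbols came from RefSeq (TAIR10.1), whose coordinates served only to find the genes beside the 7.

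A linear model with a mean for each group was fitted over all 16 arrays in R 4.3.3 with the package limma 3.58.1 (moderated two-sided test with default settings, 19.65 degrees of freedom, Benjamini-Hochberg adjustment over all probe sets, called under 0.05). It was tested on simulated data. Named genes are the 7, the 3 called lower in far-red that come next by size, the 2 most similar to each of the 7 by Pearson r, and up to 4 called in dark on each list. Alternatives were quantile normalisation, subtracted medians, a replicate block, another variance prior, array weights, only the dark arrays, no dim probe sets, and leaving out each array. A search of promoters for the site FHY3 binds was planned and not run, and no sequences were used here. The genes and lists were chosen with earlier results of these data known.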

Additional observations from a re-analysis of the deposited data

Results flagged for a closer look

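Within groups of 4, some arrays stood apart from the other 3. The DEX replicate 4 in dark of AT3G54000 was higher (6.75 against at most 6.62), as was dark mock replicate 1 of AT2G28200 (9.29 against at most 9.16). In far-red mock, replicate 2 was lower for AT3G61550 (7.27 against at least 7.38) and higher for AT5G63620 (11.35 against at most 11.28). Of 28 groups examined, such a gap is found by chance in about 1 of 20.

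ATL8 and AT3G48970 were flagged because all DEX arrays lay above the mock arrays in dark and below them in far-red. The response in far-red minus that in dark was -0.78 for ATL8 and -0.73 for AT3G48970. The difference was not tested, since the far-red values chose the genes, and the rise of AT3G48970 in dark did not pass the test.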

How the results depend on the processing

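Over 799 values recomputed under the alternatives, 790 were classed as unchanged. For a tested gene this meant the same direction and the same side of the threshold. Counts of calls were allowed a set margin. Untested values had to keep their sign and move by less than the gene's SD within groups. In dark AT3G54000 was the 1 gene called lower and ATL8 the 1 called higher under every alternative run, with an adjusted p of at most 5.15e-05 and 0.0292. Fitted on the dark arrays alone, which share no estimate of spread with the arrays that chose the genes, both calls held. The change of AT5G63620 in dark lay between -0.0204 and 0.0833 when 1 array was left out, below 0 without dark mock replicate 2, and was never called. Between the lights the count of genes called higher was 1 to 2 when 1 array was left out, since AT3G54000 lost its call without dark mock replicate 3, far-red mock replicate 3 or 4, or far-red DEX replicate 3. The cause was not tested. The 4 genes called lower kept their calls. Arrays that share a replicate number deviated together weakly at most. Correlations of deviations from the group means ran from -0.15 to 0.22 over 16 pairs. Those of replicate 1 were all above 0, from 0.08 to 0.22. Among the arrays of the other treatment in the same light, 4 of 16 arrays correlated best with their own number. With the replicate block, 850 probe sets were called lower and 562 higher in dark (809 and 533 without it), AT3G54000 had an adjusted p of 1.26e-05 and ATL8 of 0.00516 in dark, and no call of the 7 genes changed. The far-red changes lay between -0.59 and -0.34 in all 7 genes when 1 array was left out. Their sign could not change, since for each gene all far-red DEX arrays lay below all far-red mock arrays. Subtracted medians moved the median difference of all probe sets between the lights by 0.03. Signal over background is not known, so whether small differences of dimmer genes are damped cannot be said.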
